A study of Mus musculus with 28 samples.

Results

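The accessible chromatin of the 4 genes of the nuclear factor I (NFI) family, Nfia, Nfib, Nfic and Nfix, was described in Müller cells of control and db/db mice. The genes were taken by name from 21755 protein-coding genes of the autosomes and X, and every ATAC-seq region that overlapped an annotated NFI gene or the 50 kb to either side of it was counted. This gave 101 of 46189 regions in control Müller cells and 140 of 64883 regions in db/db Müller cells.

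Müller cells are the main glia of the retina. They were purified from retinas of 6-month-old mice by magnetic sorting for CD29 after removal of CD11b-positive and CD31-positive cells, a fraction that is assumed to hold a few astrocytes as well. Control mice are labelled WT. The paper used both wild-type and db/+ mice as controls, and mice of both sexes, without giving these for each ATAC-seq sample. In db/db mice, a model of type 2 diabetes, the leptin receptor (Lepr) is mutated in every cell, so that diabetes, obesity and a direct effect of the receptor in glia cannot be told apart. Open chromatin was marked by transposase insertion (omni-ATAC), and 1 peak list was used for each genotype. The labels name 2 replicates per genotype, and each list belongs to the first, so a difference between the lists has no replicate check and none was tested. Intervals on shares cover counting error only, and those on median changes cover only the spread between regions, not that between mice.

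NFI proteins are transcription factors that bind DNA as dimers at the palindrome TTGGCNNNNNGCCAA and, with lower affinity, at its half-site TTGGCA. They act at the onset of gliogenesis in the nervous system, where they help to switch on astrocyte genes. In the retina, Nfia, Nfib and Nfix are known for driving late progenitors out of the cell cycle and towards bipolar cells and Müller glia, and for keeping mature Müller cells quiescent. Nfic is best known for its part in tooth root formation.

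The db/db list was 1.40 times as long as the control list, which bears on every comparison below. Signal is the fold enrichment that the authors deposited for each peak, and it is given here with its percentile among all regions of the same list. A rise or fall of a region below is the difference between these percentiles in db/db and control cells, with no test. Of 10 Müller cell markers, 9 had a control region within 1 kb of a transcription start site (TSS) and 10 a db/db region. Of 6 rod markers, 6 had one in control cells and 4 in db/db cells. At rod genes, 15 of 59 control regions (25.4%) had no counterpart in the db/db list, against 4.16% of all control regions. Conversely, 7 of 51 db/db regions there (13.7%) had no control counterpart, against 31.3% of all db/db regions. In sorted bulk cells, fewer cells of a type and less accessibility per cell cannot be told apart. Of 5 microglial markers 1 had a region within 1 kb of a TSS in each list, as had 1 of 4 endothelial and pericyte markers, and 2 of 3 astrocyte markers had one in each list. Among 4 bipolar cell markers, 3 had one in each list, and among 5 amacrine and ganglion cell markers, 2 in control and 3 in db/db cells. Over all coding genes, 59.0% had one in control cells and 62.1% in db/db cells. The part of rod chromatin in the values at NFI genes was not tested.

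Sequences that could be read at NFI starts are shown first, because start sites that carried no region, a region of one list, or a region of both lists can be compared on them. RefSeq (GRCm38.p6) places an Nfia start 190791 bases from the nearest GENCODE start, that of Nfia-208, an Nfic start at the start of Nfic-201, and 4 Nfix starts, all inside the annotated gene. Each line below is the 250 bases before a start, 5′ to 3′ on the gene's strand, with CG pairs in capitals.
Nfia, chr4:97581693-97581942, plus strand: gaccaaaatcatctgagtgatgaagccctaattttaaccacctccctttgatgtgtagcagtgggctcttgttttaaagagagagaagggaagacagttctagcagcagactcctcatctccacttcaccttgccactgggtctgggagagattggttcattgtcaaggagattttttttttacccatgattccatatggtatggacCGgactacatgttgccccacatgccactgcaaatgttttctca
Nfic, chr10:81427174-81427423, minus strand: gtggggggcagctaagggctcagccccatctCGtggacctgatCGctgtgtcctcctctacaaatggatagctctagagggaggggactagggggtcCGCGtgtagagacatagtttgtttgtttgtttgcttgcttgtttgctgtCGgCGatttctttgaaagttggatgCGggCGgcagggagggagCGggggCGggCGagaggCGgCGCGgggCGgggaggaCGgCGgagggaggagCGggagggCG
Nfix, chr8:84780083-84780332, minus strand: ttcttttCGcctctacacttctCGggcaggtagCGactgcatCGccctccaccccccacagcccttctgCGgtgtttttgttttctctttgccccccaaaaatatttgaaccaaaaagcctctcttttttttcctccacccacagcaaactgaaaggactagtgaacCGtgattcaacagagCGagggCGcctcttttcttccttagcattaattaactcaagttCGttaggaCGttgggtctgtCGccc
The Nfia sequence held 1 CG pair, the Nfic sequence 19 and the Nfix sequence 11, against a median of 6 over 32851 promoters of the RefSeq table. The palindrome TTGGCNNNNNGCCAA, its core TGGCNNNNNGCCA, which lies within it, and the half-site TTGGCA, which can overlap both, were searched on both strands, and neither these 3 promoters nor the other 3 of Nfix held any of them. Over all promoters of the table, 0.0365% held the palindrome, 0.703% the core and 12.3% the half-site. These letters describe the windows and say nothing of NFI binding elsewhere in the genes.

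The 3 sequences differed in accessibility. In the far upstream Nfia window, 199 of the 250 bases lay in a db/db region at percentile 0.707, chr4:97581744-97582313, and no control region reached it; the nearest one began 815 bases away. This region lies outside the counted window of Nfia. The Nfic window was in no region of either list, although it is rich in CG pairs and ends just before the start of Nfic-201. The nearest regions ended 1987 bases from it in control cells and 1905 bases in db/db cells. All 250 bases of the Nfix window were inside a region of both lists, which stood at percentile 14.2 in control cells and at 28.3 in db/db cells. GENCODE has no Nfix start there, and the region counts as intronic below.

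**Figure D1:**
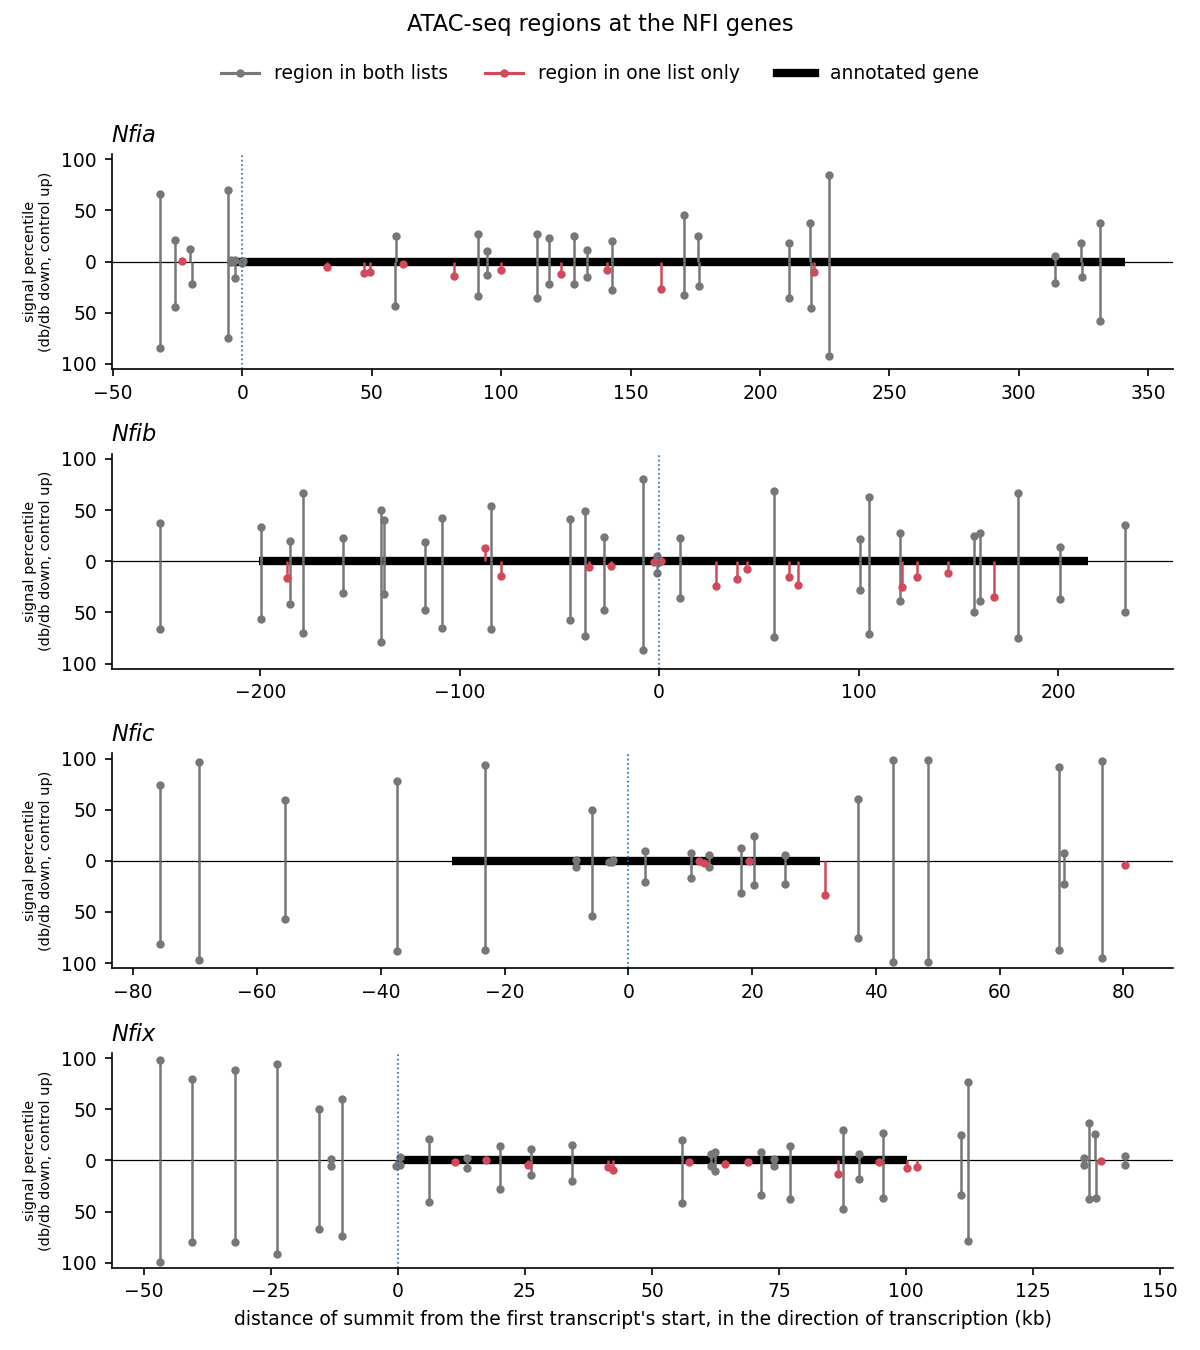
Regions at each NFI gene, by distance of the summit from the start of the first listed transcript in kb (x axis) and signal percentile in the list (y axis, control upwards, db/db downwards). The black bar is the annotated gene, grey marks regions of both lists and red marks regions of one list, which all lie at percentile 35.4 or lower. Of 18 NFI start sites, 9 have a line within 1 kb in control cells and 11 in db/db cells. These lines are mostly short, with taller ones at Nfia-208 and Nfib-212. The tallest lines stand in introns and flanks, and several of those in the flanks of Nfic and Nfix are at starts of neighbouring genes.

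Nfia (ENSMUSG00000028565.18) spans 346 kb, chr4:97772734-98118874 on the plus strand. It had 24 control regions, of which 16 were intronic, 4 upstream and 4 at promoters, and 33 db/db regions, of which 26 were intronic, 3 upstream and 4 at promoters. No region lay in its downstream flank in either list. The start shared by 5 transcripts, Nfia-201 to Nfia-205, lay in a broad region of 1683 bp with 6 summits in control cells (chr4:97777265-97778947) and of 1771 bp with 6 summits in db/db cells. Its signal was low, 3.40-fold in control cells (percentile 0.687) and 3.18-fold in db/db cells (percentile 1.63). The control region was longer than 98.6% and the db/db region longer than 99.3% of their lists. It also holds the start of E130114P18Rik, a neighbouring coding gene, and ATAC-seq does not tell such starts apart.

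The region contains the first coding exon of Nfia-201, which encodes the N terminus, chr4:97777968-97777994. The matching exon of Nfix-201, chr8:84799998-84800024 on the minus strand, lay in the broad control region at the Nfix start, and 22 of 27 bases are identical between them. Both are shown because they mark the same part of 2 paralogous genes under the same kind of control region, a broad one with low signal. In db/db cells the Nfia exon lay in a region as well. The Nfix exon did not, as it fell in the gap between chr8:84799016-84799902 and chr8:84800123-84800725.
Nfia-201, exon 1: atgtattctccgctctgtctcacccag
Nfix-201, exon 1: atgtactccccgtactgcctcacccag

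The other Nfia starts differed from it. The start of Nfia-208, the most upstream one in GENCODE, had a region ending 85 bases before it in control cells (chr4:97771852-97772649), with a 13.7-fold signal at percentile 70.5 and a 12.3-fold signal at percentile 74.3 in db/db cells. This was the promoter region with the highest signal among the NFI genes in both lists. A second, weak region on the other side of that start stood at percentile 2.04 in control cells and 0.639 in db/db cells. The start of Nfia-206, a non-coding transcript, was inside a region at percentile 11.0 in control cells and at 14.8 in db/db cells. The start of Nfia-207 had no region within 1 kb in either list.

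Outside promoters, the strongest Nfia region in both lists was intronic, 227 kb from the start of Nfia-201 (chr4:98003772-98004734 in control cells). Its signal was 16.9-fold in control cells, percentile 84.7, and 17.8-fold in db/db cells, percentile 92.7. An upstream region 31.8 kb before that start (chr4:97745471-97746550) came next in both lists, at percentile 65.7 in control cells and 84.6 in db/db cells. The third differed between the lists. In control cells it was an intronic region at chr4:97948158-97948751, at percentile 46.0, which stood at 32.6 in db/db cells, the largest fall among Nfia regions. In db/db cells it was an intronic region at chr4:98108444-98109496, at percentile 57.8 against 37.5 in control cells.

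Nfib (ENSMUSG00000008575.17) is the longest of the 4 genes, 416 kb, chr4:82290173-82705750 on the minus strand. It had 27 control regions, 22 of them intronic and 3 at promoters, and 41 db/db regions, 35 of them intronic and 4 at promoters. Each flank held 1 region in each list, and no other coding gene has a start within its window. The start cluster of 10 transcripts, Nfib-201 to Nfib-210, was partly covered by a region with a 3.52-fold signal in control cells (chr4:82505197-82505624, percentile 0.850) and lay wholly in one with a 2.97-fold signal in db/db cells (chr4:82505191-82505949, percentile 1.10). A longer region just upstream, chr4:82506044-82507337, stood at percentile 5.58 in control cells and 11.6 in db/db cells. A further db/db region near that start, chr4:82504236-82504556, was missing from the control list and stood at percentile 0.250.

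The alternative start of Nfib-212 lies at the far 5′ end of the gene and had the stronger promoter region, at percentile 33.8 in control cells (chr4:82704525-82705749) and 56.6 in db/db cells. It contains the first coding exon of Nfib-212, chr4:82705515-82705589, which is shown because it is the coding part of this alternative start.
Nfib-212, exon 1: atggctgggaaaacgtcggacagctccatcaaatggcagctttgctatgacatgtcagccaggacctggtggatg

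The strongest intronic region of Nfib lay 7.92 kb upstream of the start of Nfib-201 (chr4:82512755-82513603), with a 15.9-fold signal in control cells (percentile 80.8) and 15.4-fold in db/db cells (percentile 86.5). The control list then had chr4:82447005-82447818 at percentile 68.5, against 74.4 in db/db cells, and chr4:82324942-82325633 at 67.0, against 75.2. In db/db cells an intronic region at chr4:82644752-82645311 was second, at percentile 79.1, whereas it stood at 49.9 in control cells. That was the largest rise of any shared region at an NFI gene, 29.1 percentile points. The largest fall at Nfib was nearby, at chr4:82643047-82643739 beside the pseudogene Gm11268, from percentile 40.6 to 31.7.

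Nfic (ENSMUSG00000055053.18) is the shortest, 59.5 kb, chr10:81396186-81455635 on the minus strand. It had 21 control regions (9 intronic, 2 at promoters, 4 upstream and 6 downstream) and 25 db/db regions (11 intronic, 2 at promoters, 4 upstream and 8 downstream). The start of Nfic-204 was inside a broad control region of 1723 bp with 6 summits, chr10:81429594-81431316, at percentile 0.354. In the db/db list the same stretch was split in 2, at percentiles 0.665 and 1.01. The strongest summit of the control region lay 1287 bases from the start, so that it counted as intronic, while the larger db/db part counted as a promoter region. The start of Nfic-205 had a region at percentile 24.1 in control cells (chr10:81406576-81406984) and at 23.8 in db/db cells. The starts of Nfic-201 to Nfic-203 and of Nfic-207 had no region within 1 kb.

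A second region at the start of Nfic-205, chr10:81407540-81407893, was in the control list only. Its signal was 2.72-fold, percentile 0.131, the lowest among the control regions of the 4 genes. It lies over exon 6 of Nfic-201, chr10:81407555-81407679, which is printed as the coding sequence under the one control-only region in a promoter.
Nfic-201, exon 6: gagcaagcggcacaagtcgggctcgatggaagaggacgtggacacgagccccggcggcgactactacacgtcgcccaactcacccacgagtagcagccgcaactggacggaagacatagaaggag

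The strongest regions in the Nfic window lay at starts of neighbouring genes. In both lists these were the start of Dohh, which makes the hypusine residue of a translation factor, and Gm48551 (percentile 98.8 in control cells, 99.3 in db/db cells), and that of Fzr1, an activator of the anaphase-promoting complex (98.6 and 99.2). Hmg20b, a subunit of a histone demethylase complex, came next in control cells (97.6) and Ncln, a membrane protein of the endoplasmic reticulum, in db/db cells (97.1). Of 11 neighbouring coding genes with a start in the window, 8 had a region within 1 kb in each list, Celf5, Mfsd12 and Gm48552 among them. Within the gene the strongest region was intronic, chr10:81450036-81450503, with a 20.4-fold signal in control cells (percentile 93.5) and a 15.7-fold signal in db/db cells (percentile 87.6), the largest fall at Nfic. The largest rise was at chr10:81408808-81409282, from percentile 12.2 to 31.6, beside the start of the antisense gene Gm16104.

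Nfix (ENSMUSG00000001911.16) spans 100 kb, chr8:84699876-84800344 on the minus strand. It had 29 control regions (14 intronic, 2 at promoters, 7 upstream and 6 downstream) and 41 db/db regions (19 intronic, 2 exonic, 5 at promoters, 7 upstream and 8 downstream). The start of Nfix-201, Nfix-202 and Nfix-205 was inside a broad control region of 1700 bp, chr8:84799018-84800717, with a 4.49-fold signal at percentile 3.43. In the db/db list it was split in 2, at percentiles 4.84 and 5.69. The internal start of Nfix-203 had a region at percentile 10.9 in control cells (chr8:84773835-84774301) and at 14.1 in db/db cells, and a second db/db region, chr8:84774428-84774931, was missing from the control list. A further promoter region of the db/db list alone, chr8:84713326-84713801 at percentile 12.9, lay 454 bases from the start of the non-coding transcript Nfix-206.

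No intronic region of Nfix was above percentile 29.3 in control cells or 47.6 in db/db cells, and the strongest regions in its window were all upstream. The first was at the start of Calr, the calcium-binding chaperone calreticulin, at percentile 98.4 in control cells and 99.1 in db/db cells. The second, chr8:84823672-84824115, lay 23.7 kb before the start of Nfix-201 with no annotated start within 1 kb, at percentile 94.6 in control cells and 91.7 in db/db cells. The third was at Gadd45gip1, a mitochondrial ribosome protein gene, and stood at percentile 88.1 in control cells and 79.8 in db/db cells, the largest fall at Nfix. Of 9 neighbouring coding genes with a start in the window, 7 had a region within 1 kb in each list, including Nacc1, Trmt1, the immediate early gene Ier2 and G430095P16Rik, whose start is inside Nfix. The largest rise was intronic, chr8:84728367-84728874, from percentile 8.41 to 33.9.

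By annotated starts, all 4 NFI genes had a promoter region in each list, as had 59.0% of coding genes in control cells and 62.1% in db/db cells. Starts of a gene within 500 bp of each other were taken as 1, which left 18 NFI start sites, of which 9 had such a region in control cells and 11 in db/db cells. At Nfic, the control promoter regions were all at Nfic-205. That start lies inside exon 6 of Nfic-201, and the annotated coding sequence of Nfic-205 begins there without an ATG. It may therefore be an incomplete transcript rather than a start, which was not tested. The promoter regions of the 4 genes had low signal percentiles. Their median was percentile 5.58 in control cells (11 regions) and 5.69 in db/db cells (15 regions), against 71.0 for 13765 promoter regions of coding genes in the control list and 71.9 for 15535 in the db/db list. A signal below percentile 10 was found for 6 of the 11 control and 8 of the 15 db/db promoter regions of NFI genes, and for 7.78% and 7.57% of promoter regions of coding genes. The broad regions at the starts of Nfia and Nfix in control cells were longer than 96.5% and 96.7% of such promoter regions. Signal percentiles were not compared at matched region length. By signal, no promoter region of an NFI gene reached percentile 75 in either list. The ranks were higher by −log10 p, where the median of the NFI promoter regions was at percentile 31.5 in control cells and 36.1 in db/db cells, against 78.8 and 79.3 for promoter regions of coding genes. On that scale the regions ranged from percentile 1.02 to 92.8 in control cells and from 9.89 to 94.1 in db/db cells, and 3 control and 2 db/db regions were above percentile 75. The highest in both lists was again that at the start of Nfia-208, while the broad control regions at Nfia-201 and Nfix-201 stood at 5.08 and 19.6.

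**Figure D2:**
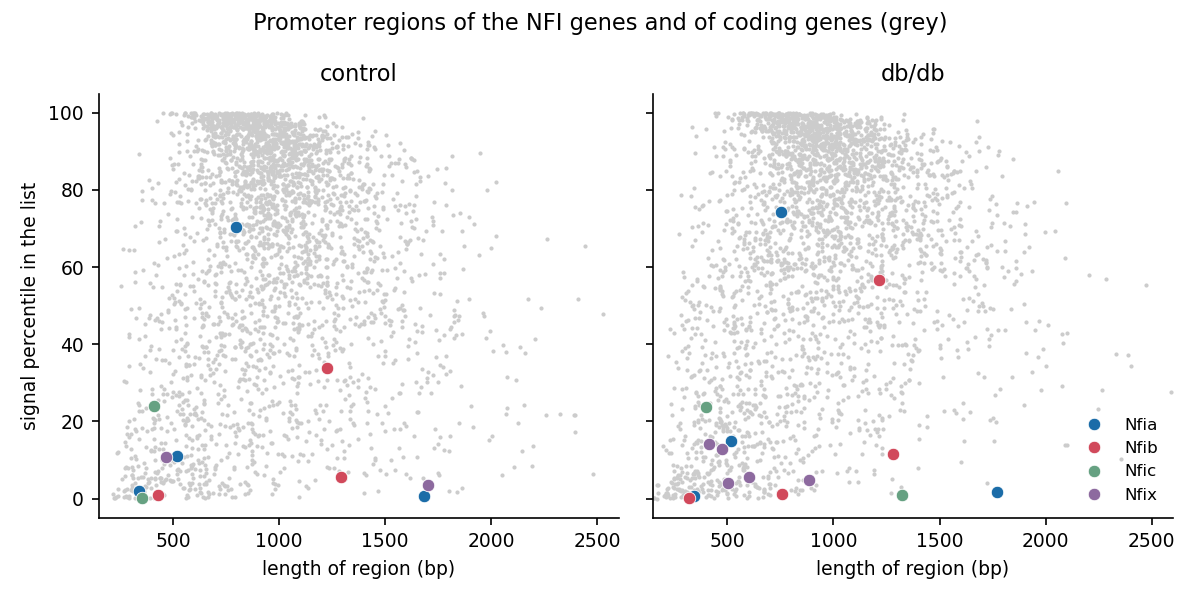
Signal percentile in the list (y axis) against region length in bp (x axis) for promoter regions of the NFI genes (coloured) and for 3000 promoter regions of coding genes drawn at random (grey), control left and db/db right. Most NFI promoter regions lie near the bottom at all lengths. The Nfia-208 region, at percentile 70.5 in control cells and 74.3 in db/db cells, is highest, followed by that of Nfib-212 at 33.8 and 56.6.

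The density of regions was compared with that of coding genes of similar length, 0.8 to 1.25 times the length of the member, each with 50 kb to either side. Nfia had 5.38 control regions per 100 kb against a median of 1.68 over 336 genes, and 7.40 db/db regions against 2.55. Nfib had 5.24 against 1.36 over 264 genes in control cells, and 7.95 against 2.16 in db/db cells. Nfia stood at percentile 97.3 in control cells and 95.8 in db/db cells, and Nfib at 97.0 and 98.5. Nfic had 13.2 control regions per 100 kb against 2.69 over 1804 genes, and 15.7 db/db regions against 3.78. Nfix had 14.5 against 2.63 over 1313 genes in control cells, and 20.5 against 3.53 in db/db cells. No gene of similar length was denser than Nfic or Nfix in either list.

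Neighbouring starts took part in these densities to a different degree. Leaving out all regions within 1 kb of any TSS, Nfic was at percentile 97.3 in control cells and 94.96 in db/db cells, with 48 and 91 genes denser than it, and Nfix kept a density above all 1313 genes in both lists. Counting the annotated gene alone, Nfic had 18.5 control regions per 100 kb, with 2 of the 1804 genes denser, and Nfix 15.9, with none denser. Nfia and Nfib stayed at percentile 94.9 or higher in that count. With lists of equal length, the db/db density of Nfia was at percentile 88.1.

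The genes closest to each member in density of both lists were Tmcc3 and Tcf4 for Nfia, and Dennd1a and Tcf4 for Nfib, where Tcf4, a helix-loop-helix transcription factor gene, had 5.16 control and 7.63 db/db regions per 100 kb. For Nfic they were Pxn, the gene of the adhesion protein paxillin, with 12.7 and 15.4, and Dnaic1 with 11.3 and 14.8. For Nfix they were Acot7 with 12.9 and 15.5, and Coro2b with 9.19 and 13.8, both lower than Nfix in both lists. This likeness is over 2 lists only.

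**Figure D3:**
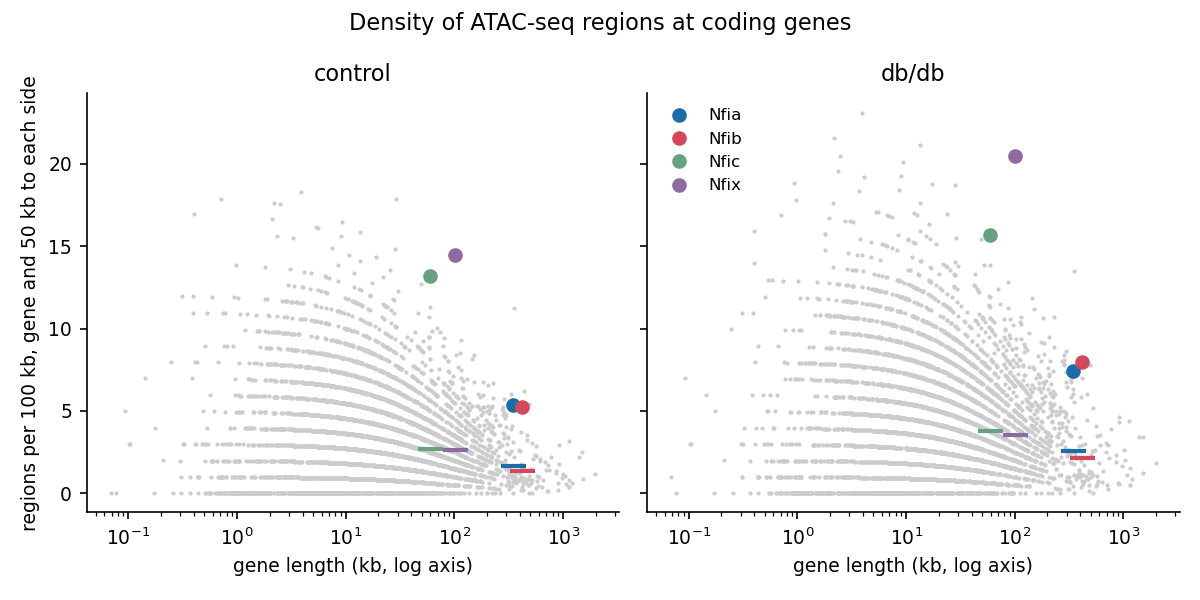
Regions per 100 kb of gene and 50 kb to each side (y axis) against gene length in kb (x axis, log) for 5000 coding genes drawn at random (grey) and the NFI genes (coloured points), control left and db/db right. Coloured dashes give the median of genes of similar length, 1.36 to 2.69 in control cells and 2.16 to 3.78 in db/db cells, and each NFI point lies above its dash.

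Regions of one list only were about as frequent at NFI genes as in the whole lists. Of 101 control regions, 4 were absent from the db/db list, a share of 3.96% (Wilson interval at 95%, 1.55 to 9.74), against 4.16% for the whole control list. Each gene had 1. These were an upstream region of Nfia (chr4:97754356-97754642, percentile 0.897), an intronic region of Nfib (chr4:82592573-82593193, percentile 12.7), the promoter region of Nfic-205 described above, and an intronic region of Nfix (chr8:84782635-84782970, percentile 0.454). All 4 were weak, at percentile 12.7 or lower, and their median length was 345 bp.

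Of 140 db/db regions, 41 were missing from the control list, 29.3% (22.4 to 37.3), against 31.3% of all db/db regions. The share was 36.6% at Nfib (15 of 41, 23.6 to 51.9), 30.3% at Nfia (10 of 33, 17.4 to 47.3), 29.3% at Nfix (12 of 41, 17.6 to 44.5) and 16.0% at Nfic (4 of 25, 6.40 to 34.7). These intervals overlap each other, and each includes the share of the whole list. With the db/db list shortened to the number of control regions, by −log10 p, the share of db/db regions at NFI genes without a control counterpart was 7.37% and that of control regions without a db/db counterpart 12.9%, against 13.0% and 13.1% over all regions of the lists so shortened. Of the 41 regions, 32 were intronic, which is 35.2% (26.1 to 45.4) of the 91 intronic db/db regions at NFI genes. None was among the 15 db/db regions in upstream flanks, of which 6 lay within 1 kb of a TSS of another gene. Among all db/db promoter regions of coding genes, 1873 of 15535 were missing from the control list. The share in flanks of other genes was not computed. Among exonic and intronic db/db regions over 1 kb from any TSS, 29 of 84 were missing from the control list, 34.5% (25.2 to 45.2), against 39.2% of all such regions inside coding genes.

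The db/db-only regions at NFI genes were weak, from percentile 0.183 to 35.4 with a median of 8.10, against a median of 23.5 for all db/db-only regions. The strongest was an intronic region of Nfib, chr4:82336853-82337437, with a 7.05-fold signal. The next at Nfib was chr4:82383392-82383677 at percentile 25.6, which covers the whole of coding exon 3 of Nfib-201, chr4:82383608-82383661. It is shown because this was the one region over a complete internal coding exon of Nfib in either list.
Nfib-201, exon 3: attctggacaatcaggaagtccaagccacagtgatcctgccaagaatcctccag
The third was chr4:82476476-82476785 at percentile 24.4. At Nfia the 3 strongest were intronic, chr4:97939484-97939967 (percentile 26.7), chr4:97859362-97859787 (14.0) and chr4:97900418-97901126 (11.6). At Nfic the strongest lay downstream, chr10:81395110-81395537 (percentile 33.1), and the next 2 were below percentile 4, at chr10:81346679-81347016 beside Hmg20b and in an intron at chr10:81414733-81415044. At Nfix they were the promoter region near Nfix-206, an intronic region at chr8:84757406-84758229 (9.37) and a region over the last exon at chr8:84699822-84700102 (6.95), within 1 kb of a Trmt1 start.

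**Figure D4:**
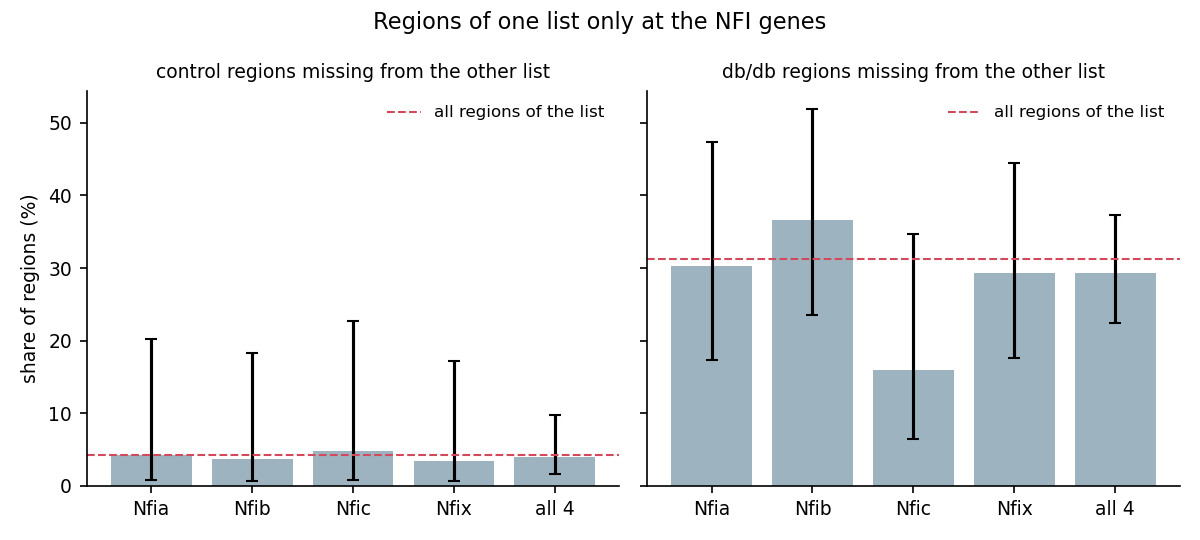
Share of control regions (left) and db/db regions (right) at each NFI gene that were missing from the other list, in percent (y axis), with 95% Wilson intervals as error bars and the share over the whole list as a dashed line. All intervals include the dashed line, at 4.16% and 31.3%.

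Regions present in both lists were compared by rank where each had a single partner, which left 95 regions at NFI genes and 43519 in all. In whole-list percentiles their median change was 7.88 points higher in db/db cells (interval 4.66 to 10.6), and 78 of 95 stood higher. Over all shared regions the median was 8.53 points and 85.3% stood higher, because the many db/db-only regions, with a median at percentile 23.5, lie mostly below the shared ones in the longer list. Ranked among shared regions alone, the median change at NFI genes was −0.52 points (−3.15 to 0.37), with 43 of 95 higher, against 0.09 over all shared regions. On either scale the median at NFI genes was within 1 point of that over all shared regions.

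On the rank among shared regions, 7 of 95 NFI regions stood at least 10 points higher in db/db cells (7.37%) and 12 at least 10 points lower (12.6%), against 13.3% and 12.8% of all shared regions. The genes differed in their values. At Nfib, 5 of 26 stood at least 10 points higher and 1 at least 10 points lower, with a median of −0.06 (−1.97 to 8.27). At Nfia, 1 of 23 stood higher and 4 lower by that margin, with a median of −3.75 (−6.55 to 3.36). At Nfic 0 of 19 stood higher and 5 lower, with a median of −0.23 (−10.6 to 3.42), and at Nfix 1 of 27 stood higher and 2 lower, with a median of −1.01 (−4.75 to 1.62). The intervals of all 4 genes include 0 and overlap each other. They treat the regions of a gene as independent and hold no replicate of a genotype, so they test neither genotypes nor genes.

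**Figure D5:**
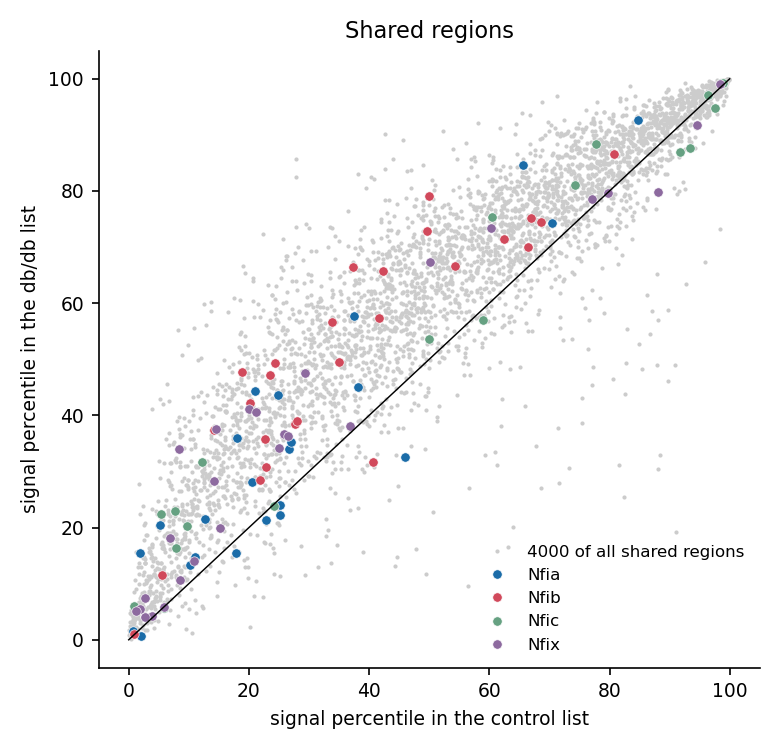
Signal percentile in the db/db list (y axis) against that in the control list (x axis) for shared regions of the NFI genes (coloured) and 4000 of all shared regions (grey); the line marks equal percentiles. Of the 95 NFI points 78 lie above the line, as do 85.3% of all shared regions.

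Other factors of Müller glia and retinal progenitors were set beside the NFI genes. All 11, Sox9, Sox8, Sox2, Lhx2, Hes1, Rax, Pax6, Six3, Six6, Tead1 and Nr3c1, had a region within 1 kb of a TSS in both lists, as the 4 NFI genes had. So had 59.0% of all coding genes in control cells and 62.1% in db/db cells. Their density percentile among coding genes of similar length had a median of 89.0 in control cells and ranged from 25.1 to 97.3, while the 4 NFI genes ranged from 97.0 to 100 in the same list. Sox8 (97.3), Pax6 (97.2) and Tead1 (97.2) stood above Nfib (97.0) there. In db/db cells the 11 had a median of 89.0 and ranged from 23.6 at Nr3c1 to 99.3 at Tead1. Sox8 (98.9) and Pax6 (98.7) as well as Tead1 then stood above Nfia (95.8) and Nfib (98.5). Tead1, which encodes a factor of the Hippo pathway, had 5.80 control and 10.7 db/db regions per 100 kb, and 16 of its 35 db/db regions were missing from the control list. Of the 140 db/db regions at these 11 genes, 46 were missing from the control list (32.9%), and 3 of 98 control regions from the db/db list (3.06%), against 31.3% and 4.16% of the whole lists.

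Of 6 genes known to be regulated by NFI factors in glia or glioma, 5 had a region at a TSS in each list. The share of all coding genes was 59.0% in control cells and 62.1% in db/db cells. Gfap, the intermediate filament gene of reactive glia, had 8 control and 9 db/db regions. Apcdd1, an inhibitor of Wnt signalling, had 8 and 9, Mmd2 had 12 in each list, and Zcchc24 had 10 and 18, of which 8 db/db regions were missing from the control list. Ezh2, the histone methyltransferase of the Polycomb complex, had 1 in each list, at its TSS. Fabp7, a lipid-binding protein of immature glia, had 1 region in its window in each list and none within 1 kb of its TSS. Of their 50 db/db regions, 13 were missing from the control list (26.0%), against 31.3% of the whole list.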

How the data were processed

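ATAC-seq peaks of Müller cells were used for control and db/db mice aged 6 months, as 1 peak list per genotype (replicate 1). RNA-seq samples were not analysed here. Read depth, peak caller, its threshold and any pooling of replicates are not given in the sources used here. Per the submitters' processing notes the build was mm10.

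The authors deposited 4 measures per peak, namely the fold enrichment over background (a ratio, here called signal), a score, and p and q as −log10 values. Their scaling is not stated, so signals were ranked within a list.

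Overlapping rows of a list were joined into 1 region, which took its summit and values from the row of highest signal. A region was shared if at least 1 bp of it lay in a region of the other list. Genes came from GENCODE M21 (GRCm38), promoters from RefSeq (GRCm38.p6). Classes followed the summit, and a promoter region had it within 1 kb of a TSS of the gene. Python 3.11.15, numpy 2.4.6, scipy 1.17.1, pandas 2.3.3 and matplotlib 3.10.9 were used. Merging, overlaps and window counts were checked on simulated lists. With 1 list per genotype no test was made. Shares have 95% Wilson intervals, and medians of changes a binomial interval.

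The members, gene lists and naming rule were chosen with earlier results of these data known. The rule named the 4 genes, neighbouring coding genes with a TSS region, 11 glial factors (a further planned one is not reported here), 6 genes regulated by NFI, and the 2 genes of nearest density per member. Of the regions it named all promoter and control-only ones, the 3 strongest elsewhere and the 3 strongest db/db-only ones per gene, and the largest changes in rank.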

Additional observations from a re-analysis of the deposited data

How the results depend on the processing

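No paired analysis was possible because each genotype has 1 list. With the db/db list shortened to the length of the control list, 12.9% of control regions and 7.37% of db/db regions at NFI genes had no counterpart in the other list, against 13.1% and 13.0% over all regions. This also turned the median change in rank to −2.68 points, against −0.89 over all shared regions. Ranks among shared regions gave −0.52 points. Subtracting the median change at the same mean rank, an alternative chosen after seeing the data, gave −0.92 points. The median density percentile of the 4 genes became 97.0 in control cells and 96.1 in db/db cells without regions at a TSS. In db/db cells it became 98.3 for bases covered and 97.9 with lists of equal length. The number of promoter regions depended on the distance allowed, most at Nfic, where it was 1, 2 or 5 in control cells and 0, 2 or 5 in db/db cells for a summit within 500 bp, 1 kb or 2 kb of a TSS. In all, 116 values were recomputed. Of these, 92 stayed within the 95% interval of the value given above or, for numbers of promoter regions, within 1.5 times of it. A further 21 left that range and 3 changed sign. For density percentiles, which are many of these values, the interval is not printed above. Pooling, depth and peak threshold are unknown, so a region missing from a list was not called there and may still be accessible.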
